A study of Mus musculus with 6 samples.

Results

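The granule genes of mast cells and basophils were followed through the sorted immune cells of the arthritic mouse joint. The set comprised 7 genes, chosen by symbol: the proteases Mcpt4, Cma1, Tpsb2, Cpa3 and Mcpt8, and the amine genes Hdc and Slc18a2. All 7 were found among the 20394 genes of the count table. C57BL/6 mice had been immunized under the skin with 10 μg methylated bovine serum albumin (mBSA) in complete Freund's adjuvant and challenged on day 21 with 100 μg mBSA in the knee. From the challenge they received phosphate buffered saline (PBS, 2 samples) or 300 μg of the immunoregulatory peptide PEPITEM (4 samples) into the peritoneum. The paper digested isolated joints, and the CD45-positive cells, which it calls synovial, were sorted on day 3 after the challenge. Every sample therefore came from a challenged joint, and no unchallenged mice were included. The cells carried library numbers from 1 to 6 that no source used here links to the sample names, so no cell was assigned to PBS or PEPITEM and the groups were not compared.

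Mast cells and basophils both carry the high-affinity IgE receptor FcεRI and store preformed mediators in granules. Mast cells mature in tissues, depend on the receptor tyrosine kinase Kit, and in connective tissue pack their granules with heparin-bound chymases, tryptases and carboxypeptidase A3. Basophils leave the marrow mature, circulate in blood and carry a granule content of their own. Both make histamine from histidine with the enzyme encoded by Hdc and load it into granules with the transporter encoded by Slc18a2.

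The table held 32953 cells in 6 libraries of 2919 to 9345 cells and 47273569 to 123367661 unique molecular identifiers (UMIs, tags that each mark 1 RNA molecule), with a median of 11376 UMIs per cell. A barcode sequence that also occurred in another library was carried by 276 cells, of which 4 were FcεRI-positive as defined below. Cells were sorted into classes by marker genes that did not include any of the 7 genes. A cell with UMIs of at least 2 of the 3 genes Fcer1a, Ms4a2 and Cd200r3 was taken as FcεRI-positive. These 3 are called the FcεRI genes for short, although Cd200r3 does not encode a part of FcεRI. Of the 218 such cells, 139 had a UMI of Mrgprb1 or Mrgprb2, receptors of connective tissue mast cells, and were gated as mast cells. A further 27 had Kit but neither receptor gene (Kit-positive FcεRI-positive cells), and 52 had none of the 3 (basophil gate). The other classes needed UMIs of at least 3 of 5 markers and more markers than any other class. They included 680 granulocyte precursors, 276 stem and progenitor cells, 66 erythroid cells and 29 megakaryocytes. Whether cells of any class came from synovium or from marrow of the digested joint was not tested.

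The gates were checked on genes that had not defined them. Gata2, a transcription factor of both lineages, was found in 87.1% of the mast cell gate, 88.9% of the Kit-positive gate and 94.2% of the basophil gate, against 0.160% of B cells. It was not particular to these gates, with 79.3% of megakaryocytes, 63.6% of erythroid cells and 52.2% of stem and progenitor cells. All 139 cells of the mast cell gate had Kit, and 72.7% had a UMI of Ptprc, the gene of CD45, on which the cells had been sorted. The Kit-positive gate differed from the mast cell gate in precursor and cell cycle genes: Cd34 was found in 51.9% against 14.4% of cells, and Mki67 in 55.6% against 5.04%. These shares were not thinned to equal depth, and the median depth was 23503 UMIs in the Kit-positive gate against 5219 UMIs in the mast cell gate. Itga2, which encodes the basophil surface protein CD49b, was found in 26.9% of the basophil gate and in 49.6% of the mast cell gate. The mast cell gate held 0.422% of all cells (exact 95% interval 0.355 to 0.498%), with 0.0796% in the lowest library, a median of 0.468% and 0.987% in the highest. The basophil gate held 0.158% (0.118 to 0.207%), with 0.0501%, 0.136% and 0.379% in the lowest, median and highest library. Intervals here and below cover counting error only.

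The gates were not free of neutrophil transcripts. At least 3 of the 5 markers of mature neutrophils were found in 19 of 139 cells of the mast cell gate, 2 of 27 of the Kit-positive gate and 17 of 52 of the basophil gate, and the summed level of these markers was 2452, 1985 and 4979 counts per 1000000 UMIs (CPM), against 20404 CPM in mature neutrophils. Markers of immature neutrophils summed to 4794, 763 and 14095 CPM in the same order of gates, against 90572 CPM in immature neutrophils. No marker of either neutrophil list was found in 74 of 139, 16 of 27 and 13 of 52 cells. Macrophage markers summed to 1242.5, 2033 and 1499 CPM, against 11768 CPM in macrophages. For markers of B cells the summed level was 42.8, 108.5 and 170 CPM, against 12478 CPM in B cells. For markers of T cells it was 20.4, 1.51 and 0 CPM, against 2620 CPM in T cells. Values for the cells free of neutrophil markers are given beside Cma1, Cpa3, Mcpt8 and Hdc, and the part of the neutrophil transcripts in the results was not tested. A further 26.8% of all cells stayed without a class, mostly because the marker lists tied.

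Mcpt4, Mcpt8 and Cma1 lie in 1 cluster of serine protease genes on chromosome 14. In the GENCODE annotation of GRCm38 (mm10), Cma1 is at chr14:55941451-55944675, Mcpt4 at chr14:56059629-56062313 and Mcpt8 at chr14:56082166-56085273, all on the minus strand and each with 5 exons. The start sites of Mcpt4 and Mcpt8 are 117.6 and 140.6 kb from that of Cma1. Tpsb2 belongs to the tryptase cluster at chr17:25366305-25369098 on the plus strand. Cpa3 is at chr3:20215620-20242181 and Hdc at chr2:126593667-126619299, both on the minus strand, and Slc18a2 is at chr19:59260896-59296012 on the plus strand.

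The promoters of 4 proteases are shown because they differ in the gate that holds their transcripts: Mcpt4, Cma1 and Cpa3 were highest in the mast cell gate, and Mcpt8, the next gene to Mcpt4 in the table, in the basophil gate. Promoter sequences from RefSeq (GRCm38.p6) were matched for 6 of the 7 genes, all but Tpsb2. All 250 bases before each RefSeq start site were searched on both strands for AGATAA or TGATAA, the core motif of GATA factors, and for CATGTG, an E-box bound by the mast cell factor MITF. The sequences are in the direction of the gene, without bases that GENCODE places inside it, and capitals mark a GATA match.
Mcpt4, chr14:56062314-56062560, minus strand: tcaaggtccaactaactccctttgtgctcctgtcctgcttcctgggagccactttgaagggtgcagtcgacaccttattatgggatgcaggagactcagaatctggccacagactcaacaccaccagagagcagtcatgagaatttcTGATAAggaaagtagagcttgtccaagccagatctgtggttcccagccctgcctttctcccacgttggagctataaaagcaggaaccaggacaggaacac
Cma1, chr14:55944676-55944925, minus strand: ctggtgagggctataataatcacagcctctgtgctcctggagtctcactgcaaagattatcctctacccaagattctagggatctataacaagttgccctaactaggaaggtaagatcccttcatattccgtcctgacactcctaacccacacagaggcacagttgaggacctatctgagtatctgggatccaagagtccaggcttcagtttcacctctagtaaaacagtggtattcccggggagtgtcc
Cpa3, chr3:20242182-20242431, minus strand: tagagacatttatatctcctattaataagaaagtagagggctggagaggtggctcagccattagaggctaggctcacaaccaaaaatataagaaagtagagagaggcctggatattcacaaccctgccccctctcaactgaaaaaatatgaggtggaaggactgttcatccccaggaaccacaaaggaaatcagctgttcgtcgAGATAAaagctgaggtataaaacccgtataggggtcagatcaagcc
Mcpt8, chr14:56085274-56085447, minus strand: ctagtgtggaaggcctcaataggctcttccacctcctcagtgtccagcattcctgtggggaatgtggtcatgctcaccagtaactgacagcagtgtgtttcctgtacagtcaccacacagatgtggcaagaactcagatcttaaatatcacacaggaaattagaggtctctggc

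A GATA match was found before Mcpt4, beginning 103 bases upstream of the RefSeq start site, before Cpa3 at 46 bases and before Slc18a2 at 230 bases. The windows of Cma1, Mcpt8 and Hdc had no match to these letters, and that of Hdc lies inside the gene as GENCODE draws it, so it is not shown. A form that ends in G lies in the window of Cma1, on the opposite strand, and in that of Slc18a2. That form was not searched across all windows, and its share over mouse promoters was not counted. Whether Cma1 differs from Mcpt4 and Cpa3 in GATA motifs was therefore not tested. The E-box letters were in none of the 6 windows. Of 32851 mouse promoter windows of the same length, 16.6% held a GATA match and 12.25% the E-box, and a match is a description of the letters only.

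Mcpt4 encodes the chymase mMCP-4 of connective tissue mast cells. In the mast cell gate 139 of 139 cells held it, at 20353 CPM (exact 95% interval 20065 to 20644). The libraries ranged from 15147 CPM through a median of 21131 to 27802 CPM, and the lowest of them lay far above every library of every other class. The FcεRI gates held 88.3% of its UMIs and the cells without a class 10.2%. It was found in 3 cells of the Kit-positive gate, at 106 CPM, and in 1 cell of the basophil gate, at 18.2 CPM. It was found in 0.142% of B cells, whose median depth of 5758 UMIs was close to the 5219 UMIs of the mast cell gate, and in 0 of 292 NK cells, which allows up to 1.03% of cells with a UMI, not of cells that express the gene.

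Cma1, the gene of the chymase mMCP-5, was likewise found in all 139 cells of the mast cell gate, at 10886 CPM. Its libraries ranged from 7983 through 10714 to 18316 CPM. In the Kit-positive gate 4 of 27 cells held it, for 469 CPM, of which the highest library, with 3 cells, gave 3275 CPM and 3 libraries gave 0. Without that library, library 3, the Kit-positive gate was at 58.7 CPM of Cma1 and 44.9 CPM of Mcpt4, and without cells that held a neutrophil marker it was at 812 CPM of Cma1. With all 3 FcεRI genes required its 5 remaining cells were at 2006 CPM of Cma1 and 319 CPM of Mcpt4. All of these UMIs, 277 of Cma1 and 44 of Mcpt4, came from 1 cell of library 3. The basophil gate had it in 1 of 52 cells, the same number as for Mcpt4 and Tpsb2.

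Tpsb2 encodes the tryptase mMCP-6, which in granules is held by heparin. It was found in 138 of 139 cells of the mast cell gate, at 6992 CPM, with libraries from 4848 through 7564 to 13995 CPM. The Kit-positive and the basophil gate were at 15.1 and 13.6 CPM, from 2 cells and 1 cell. All of these cells came from library 5, and the remaining 5 libraries were at 0 in both gates. Tpsb2 and its neighbour Tpsab1 are related tryptase genes of the same locus, and the division of reads between them was not tested.

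Cpa3, the gene of mast cell carboxypeptidase A3, showed a graded order across the 3 gates rather than presence and absence. It was at 7283 CPM in the mast cell gate, with libraries from 4971 through 7350 to 12633 CPM. The Kit-positive gate was at 1592 CPM, with libraries from 479 through 1253 to 4871 CPM, and the basophil gate at 461 CPM, with libraries from 91.5 through 308.0 to 1424 CPM. The libraries of the mast cell gate did not overlap those of either other gate, whereas those of the Kit-positive and basophil gates overlapped. The 13 cells of the basophil gate without neutrophil markers were at 990 CPM. With all 3 FcεRI genes required the Kit-positive gate was at 4020 CPM, from 5 cells. Cpa3 was found in 99.3%, 85.2% and 71.2% of the cells of the 3 gates, and in 98.7%, 72.9% and 46.1% when each cell was thinned to 2500 UMIs.

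Cpa3 was also found in precursors. Stem and progenitor cells, gated on Meis1, Mecom, Angpt1, Cd34 and Flt3, were at 54.0 CPM with 22.1% positive cells (7.88% thinned), and erythroid cells at 40.5 CPM with 13.6% (4.05% thinned). The erythroid libraries ranged from 0 through 19.3 to 96.5 CPM, and without library 5, which held 51 of the 84 UMIs, the class was at 21.5 CPM. Granulocyte precursors were at 16.5 CPM with 4.41% positive cells. The share was 0.0710% in B cells, 0.173% in immature neutrophils and 0 of 1025 in T cells, which allows up to 0.293% of cells with a UMI. The libraries of stem and progenitor cells ranged from 5.91 through 46.4 to 99.9 CPM. With all 3 FcεRI genes and 4 of 5 markers of other classes required, granulocyte precursors were at 36.0 CPM of Cpa3 and erythroid cells at 61.5 CPM.

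Mcpt8 encodes mMCP-8, a granzyme-like protease used as the defining mark of mouse basophils. Its order was the reverse of the others. It was at 1958 CPM in the basophil gate (1853 to 2068), with libraries from 309 through 1331 to 3094 CPM, and at 1111 CPM in the Kit-positive gate, with libraries from 0 through 394 to 2507 CPM. The mast cell gate was at 11.8 CPM, with libraries from 0 through 7.90 to 20.4 CPM, all below the lowest library of the basophil gate. The libraries of the basophil and Kit-positive gates overlapped. Library 2 held 22 of the 52 basophil-gated cells, and without it the basophil gate was at 911 CPM and the Kit-positive gate at 598 CPM. With all 3 FcεRI genes required the order of these 2 gates turned, with 4165 CPM in the Kit-positive and 2881 CPM in the basophil gate. These values rest on 5 and 31 cells. Without cells that held any neutrophil marker, the 13 remaining cells of the basophil gate were at 3280 CPM and the 16 of the Kit-positive gate at 1691 CPM.

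Outside the FcεRI gates, Mcpt8 was found in 27.9% of granulocyte precursors, at 20.6 CPM, and in 13.04% of stem and progenitor cells, at 15.8 CPM. Precursors were deep, with a median of 33856 UMIs, and after thinning the shares were 3.58% and 2.72%. Thinned shares were 0.0740% in immature neutrophils, 0.0335% in mature neutrophils and 0.0193% in B cells. The libraries of the precursors ranged from 2.02 through 15.45 to 24.1 CPM, and those of mature neutrophils from 0 through 0.0777 to 0.555 CPM, without overlap.

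**Figure D1:**
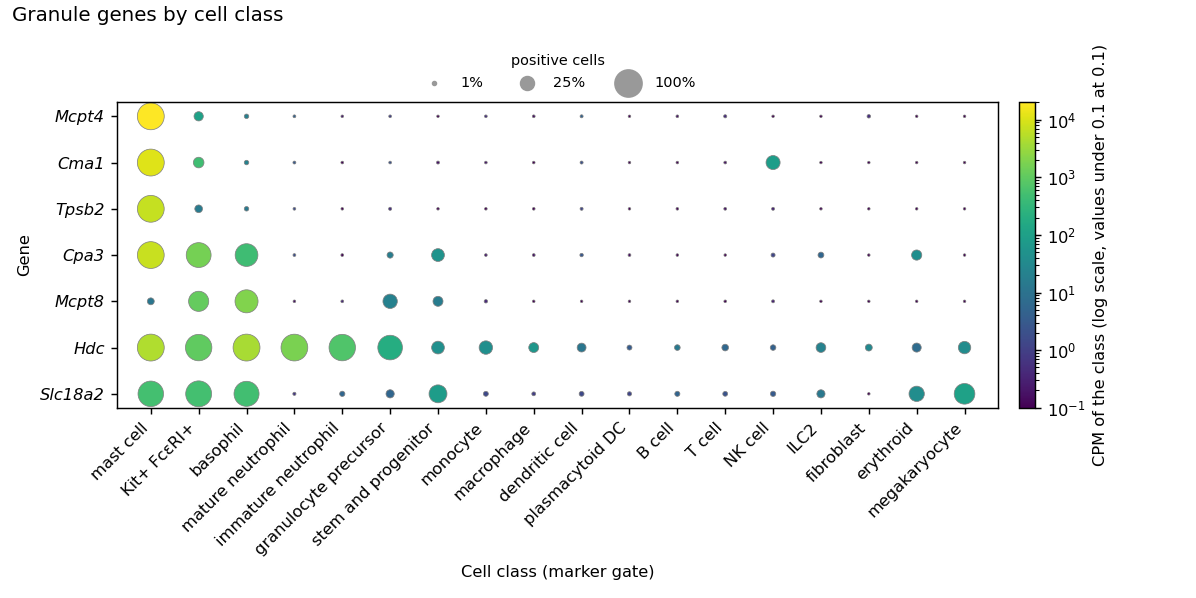
Each gene (rows) in each cell class (columns), where the area of a dot stands for the percent of cells with a UMI and its colour for the CPM of the class on a log scale. Mcpt4, Cma1 and Tpsb2 were in 99.3 to 100.0% of the mast cell gate, Mcpt8 in 55.6% of the Kit-positive and 73.1% of the basophil gate, and Hdc continued through the neutrophil columns.

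The proteases divided the FcεRI-positive cells nearly without mixing. In the mast cell gate 131 of 139 cells had Mcpt4, Tpsb2 or Cma1 without Mcpt8, 8 cells had both and none had Mcpt8 alone. In the basophil gate 38 of 52 cells had Mcpt8 alone, 1 had a mast cell protease alone, none had both and 13 had neither. The Kit-positive gate was mixed as a class but mostly not within its cells: 13 of 27 had Mcpt8 alone, 2 a mast cell protease alone, 2 both and 10 neither. The 8 mast cells with Mcpt8 were at 32465 CPM of Mcpt4 and the other 131 at 19702 CPM, and Mcpt8 itself was at 231 CPM in those 8 cells, below the 1958 CPM of the basophil gate.

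**Figure D2:**
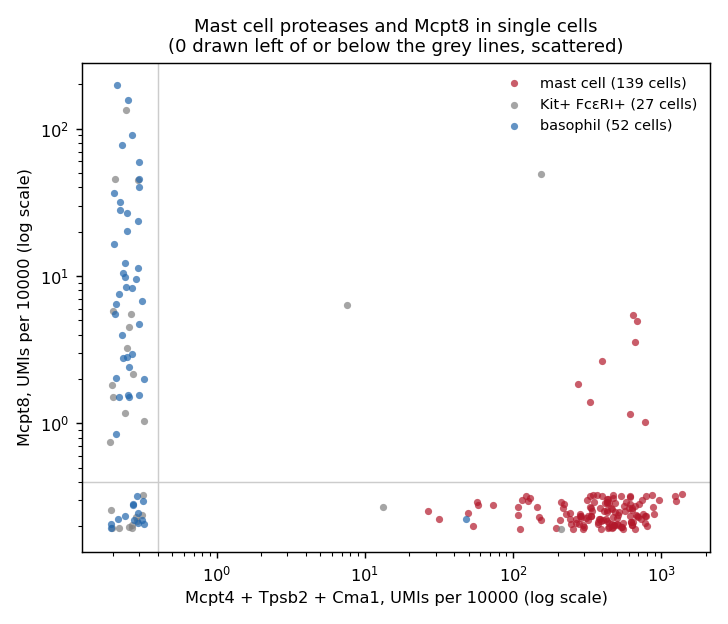
Each point is 1 FcεRI-positive cell, with the summed UMIs per 10000 of Mcpt4, Tpsb2 and Cma1 on the horizontal axis and those of Mcpt8 on the vertical axis, both on log scales and with zeros scattered beside the grey lines. The 139 cells of the mast cell gate lay along the lower right, 38 of the 52 cells of the basophil gate along the left, and the 10 cells with both kinds were 8 of the mast cell and 2 of the Kit-positive gate.

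These genes made up a large part of the transcripts of a mast cell. The 7 genes together held 5.08% of all UMIs of the mast cell gate, with 0.475% in the lowest cell, a median of 5.80% and 17.3% in the highest. The share was 0.706% in the basophil gate and 0.482% in the Kit-positive gate. In the mast cell gate 138 of 139 cells had at least 5 of the 7 genes, against 4 of 27 and 1 of 52 in the others. Among the 139 mast cells the proteases varied together, with a Spearman rho of 0.717 for Mcpt4 and Cpa3, 0.676 for Mcpt4 and Tpsb2, 0.649 for Cpa3 and Cma1, 0.641 for Mcpt4 and Cma1, 0.565 for Tpsb2 and Cma1, and 0.557 for Tpsb2 and Cpa3, on UMIs per 10000. The amine genes followed the proteases less, at 0.137 to 0.277 for Hdc and 0.175 to 0.255 for Slc18a2 with the 4 mast cell proteases, and Mcpt8 was at 0.00621 to 0.231. These cells share 6 libraries and the total UMIs in the denominator, and the values of the genes had a rho of -0.292 to 0.0169 with the total UMIs. They held 4452 UMIs of Hdc, 477 of Slc18a2 and 11 of Mcpt8, against 6528 to 19002 of the 4 mast cell proteases. The part of counting error in the lower values was not tested.

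Hdc, the only enzyme that makes histamine in mammals, was the gene of the set with the widest distribution. It was found in 52.7% of all 32953 cells, and the FcεRI gates held 3.09% of its 252676 UMIs. By level the mast cell and basophil gates still stood first. The mast cell gate was at 4769 CPM with libraries from 3397 through 4477 to 6868 CPM, and the basophil gate at 4088 CPM with libraries from 2601 through 3988 to 11465 CPM, and all cells of both gates were positive. The libraries of these gates overlapped, and their order turned with all 3 FcεRI genes required (4661 and 5356 CPM) and when cells were weighted equally (5432 and 6534 CPM). The Kit-positive gate was at 1001 CPM with libraries from 384 through 823 to 1915 CPM, a range that overlapped that of mature neutrophils. The cells without neutrophil markers were at 5597 CPM in the mast cell gate, 749 CPM in the Kit-positive gate and 5326 CPM in the basophil gate, higher than with them in the first and the last and lower in the Kit-positive gate.

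Through the granulocyte gates Hdc stood higher at each step of maturation. Granulocyte precursors, gated on Elane, Mpo, Prtn3, Ctsg and Ms4a3, were at 194 CPM with libraries from 131.5 through 175 to 205 CPM. Immature neutrophils, gated on Ltf, Camp, Ngp, Ly6g and Mmp8, were at 704 CPM with libraries from 589 through 708.5 to 877 CPM. Mature neutrophils, gated on Csf3r, Cxcr2, Retnlg, Mmp9 and Il1r2, were at 1719 CPM with libraries from 1599 through 1708 to 1856 CPM. No library of a gate overlapped a library of the next, and in each of the 6 libraries the order was the same. The share of all genes with libraries so divided was not counted. The positive shares were 83.5%, 96.6% and 98.8%, and 32.1%, 77.1% and 94.1% after thinning to 2500 UMIs. The 3847 cells tied between the markers of mature and immature neutrophils lay between them, at 1131 CPM with 99.3% positive, and held 29.6% of all Hdc UMIs, beside 36.1% in the 2 neutrophil gates.

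**Figure D3:**
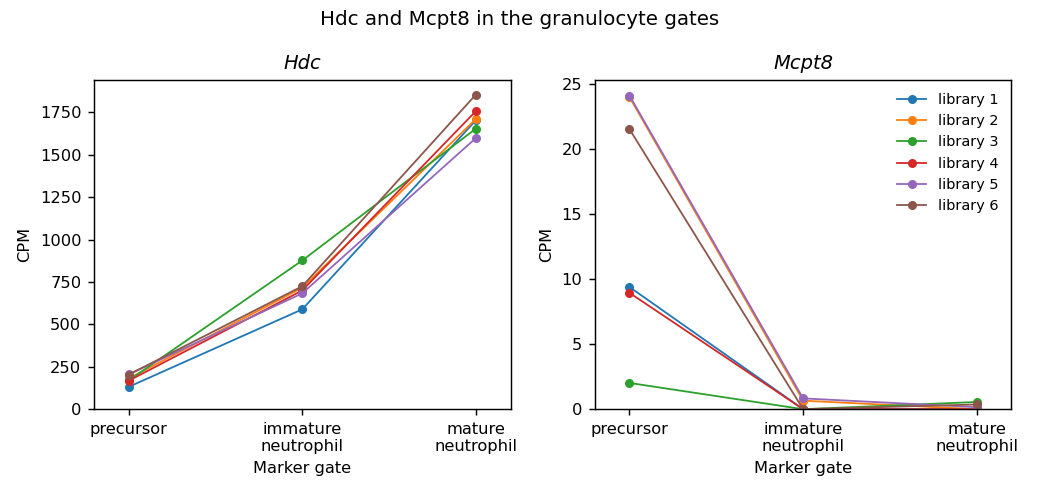
CPM of Hdc (left) and Mcpt8 (right) in granulocyte precursors, immature neutrophils and mature neutrophils, with 1 line per library and axes from 0. Hdc ran from 131.5 to 205 CPM in precursors up to 1599 to 1856 CPM in mature neutrophils in all 6 libraries, while Mcpt8 was at 2.02 to 24.1 CPM in precursors and under 1 CPM in both neutrophil gates.

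In the mononuclear phagocytes Hdc was far lower. Monocytes were at 42.2 CPM with 24.3% positive cells and macrophages at 64.8 CPM with 12.9%, and after thinning the shares were 7.06% and 6.47%. B cells, which served as the class that should lack the gene, were at 13.9 CPM with 3.59% positive cells and 1.77% after thinning, and T cells at 5.96 CPM with 5.27% and 1.61%. Type 2 innate lymphoid cells were at 21.1 CPM with 12.3%, 5.59% after thinning. Macrophages ranged from 35.1 through 58.5 to 109 CPM over the libraries and B cells from 6.01 through 12.5 to 46.6 CPM, so that these ranges overlapped.

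Slc18a2 encodes VMAT2, the transporter that fills granules with histamine and serotonin. It did not divide the FcεRI gates. The Kit-positive gate was at 531 CPM with libraries from 212 through 503 to 757 CPM, the mast cell gate at 511 CPM with libraries from 373 through 435 to 639 CPM, and the basophil gate at 494 CPM with libraries from 124 through 506 to 1098 CPM. The 3 ranges overlapped, and the gate that came first changed with the library left out. Without library 2 the basophil gate was at 294 CPM. A UMI was present in 92.6%, 89.9% and 86.5% of the cells.

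Outside these gates, stem and progenitor cells were at 80.6 CPM of Slc18a2 with 43.8% positive cells (15.4% thinned), with libraries from 38.3 through 76.5 to 96.1 CPM. Megakaryocytes, whose platelet granules store serotonin, were at 109 CPM in 17 of 29 cells, but library 6 held 57 of their 71 UMIs, and without it the class was at 37.0 CPM. Erythroid cells were at 38.1 CPM with 31.8% (9.30% thinned). B cells were at 4.77 CPM with 2.72% (0.897% thinned), and mature neutrophils, the class with the most Hdc UMIs among the gates, at 0.709 CPM with 0.487%. Hdc and Slc18a2 were thus both abundant in the FcεRI gates, while the neutrophil gate had Hdc in 98.8% of cells and Slc18a2 in 0.487%.

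**Figure D4:**
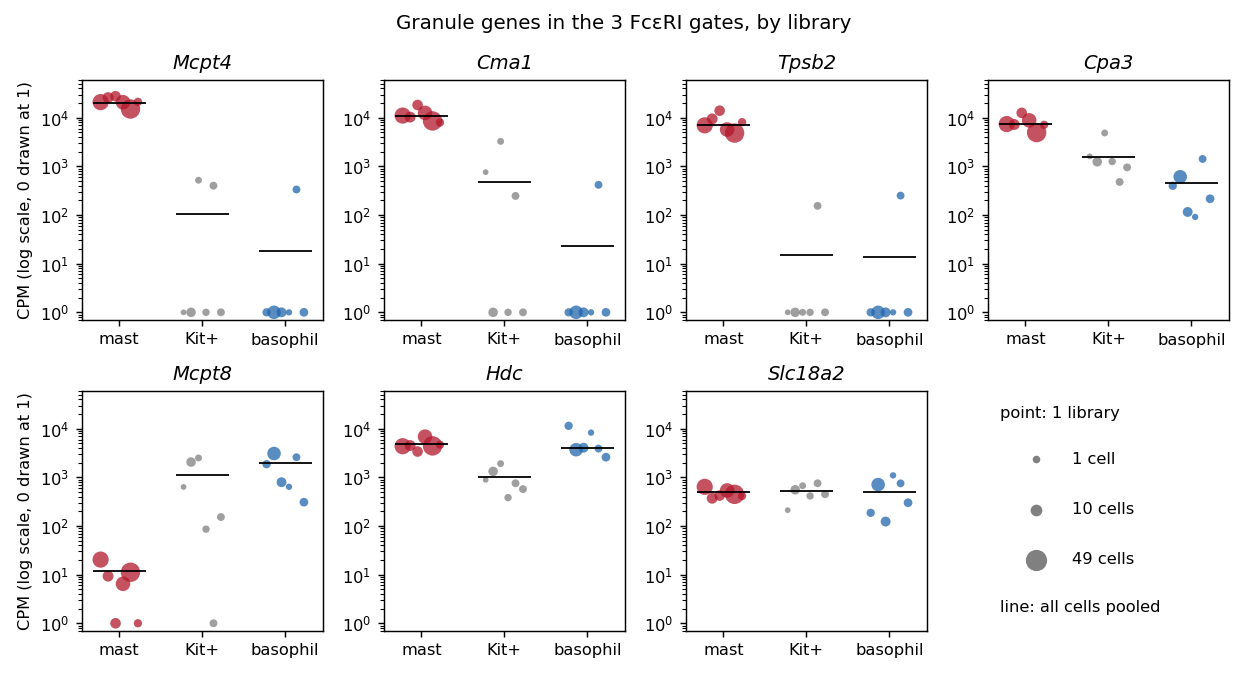
CPM of each gene on a log scale in the 3 FcεRI gates, where a point is 1 library with its area by the number of cells, zeros are drawn at 1 and the line is the value of all cells pooled. The libraries of the mast cell gate lay above those of both other gates for Mcpt4, Cma1, Tpsb2 and Cpa3 and below those of the basophil gate for Mcpt8, whereas Slc18a2 overlapped in all 3. For Cpa3 the lowest mast cell library was at 4971 CPM and the highest Kit-positive library at 4871 CPM. The share of all genes with libraries so divided was not counted.

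Cma1 had a further site of expression, in NK cells. The NK cell gate was at 83.3 CPM (73.5 to 94.0) with 78 of 292 positive cells, a share of 26.7% (17.8% thinned). The libraries ranged from 53.7 through 68.0 to 158 CPM, and each of the 6 had at least 10 positive cells. T cells were at 0.181 CPM with 0.195% positive cells and B cells at 0.0709 CPM with 0.0533%. The other mast cell proteases were rare or absent there. The NK cells held 261 UMIs of Cma1 beside 0 of Mcpt4, 1 of Tpsb2 and 4 of Cpa3. For the same genes the mast cell gate held 10163, 19002, 6528 and 6800. In the mast cell gate the UMIs of Mcpt4 outnumbered those of Cma1, and in the NK cells no UMI of Mcpt4 was found. Whether the Cma1 UMIs of the NK cells came from mast cells was not tested. The NK cells with Cma1 had 734 CPM of the cytotoxic protease gene Gzmb and those without 541 CPM. Mki67, a gene of dividing cells, was found in 5.13% of the former and 23.4% of the latter, whose median depths were 6811 and 10247 UMIs.

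The neighbours of the members on chromosome 14 and chromosome 17 were read from lists of 15 and 7 genes of the chymase and tryptase loci. Of the chymase locus 8 genes were in the table. In each of the 3 FcεRI gates 6 of them reached 10 CPM, but not the same 6. Cma2 reached it in the mast cell gate only and Gzmc in the other gates only, while Gzme was at 0 CPM in all 3. Along the chromosome the class with the highest level changed between some neighbouring genes and stayed the same between others. Cma2, 6.3 kb from Cma1, was at 28.9 CPM in the mast cell gate, and the next gene in the table, Mcpt4, was a mast cell gene as well. Mcpt8 was followed by Ctsg, the gene of cathepsin G, a neutrophil protease, at 3043 CPM in granulocyte precursors, of which it is a marker. In the Kit-positive, basophil and mast cell gates Ctsg was at 832, 215 and 108 CPM. Beyond it, Gzmc and Gzmb, granzymes of cytotoxic lymphocytes, were at 200.1 and 1253 CPM in the basophil gate and 193 and 793 CPM in the Kit-positive gate, with 89.7 and 578 CPM in NK cells. The libraries overlapped between these classes. For Gzmc they ranged from 0 to 355 CPM in the basophil gate, 0 to 414 CPM in the Kit-positive gate and 2.39 to 491 CPM in NK cells. For Gzmb they ranged from 91.5 to 2176 CPM, 22.9 to 5506 CPM and 375 to 1011 CPM. Without library 5 Gzmc was at 16.2 CPM in NK cells, and without library 2 at 74.2 CPM in the Kit-positive gate. Without library 3 Gzmb was at 465 CPM in the Kit-positive gate. In the mast cell gate Gzmb was at 46.1 CPM and Gzmc at 0.

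Gzmb in the basophil gate was found in 61.5% of cells. In the tryptase locus 5 of 7 genes were in the table, and 3 were highest in the mast cell gate. Tpsab1, the gene of the tryptase mMCP-7, was there at 1622 CPM with libraries from 946 to 2487 CPM, and Tpsg1, of a membrane-bound tryptase, at 272 CPM. Tpsg1 begins 174 bases beyond the end of Tpsb2 on the same strand, so its count may hold reads of its neighbour. Prss34, which encodes the basophil tryptase mMCP-11, went the other way, with 1534 CPM in the basophil gate, 314 CPM in the Kit-positive gate and 79.3 CPM in the mast cell gate. A UMI of it was present in 15.4% of the basophil-gated cells, with libraries from 0 to 2781 CPM, and without library 2 the basophil gate was at 384 CPM and the Kit-positive gate at 69.5 CPM.

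**Figure D5:**
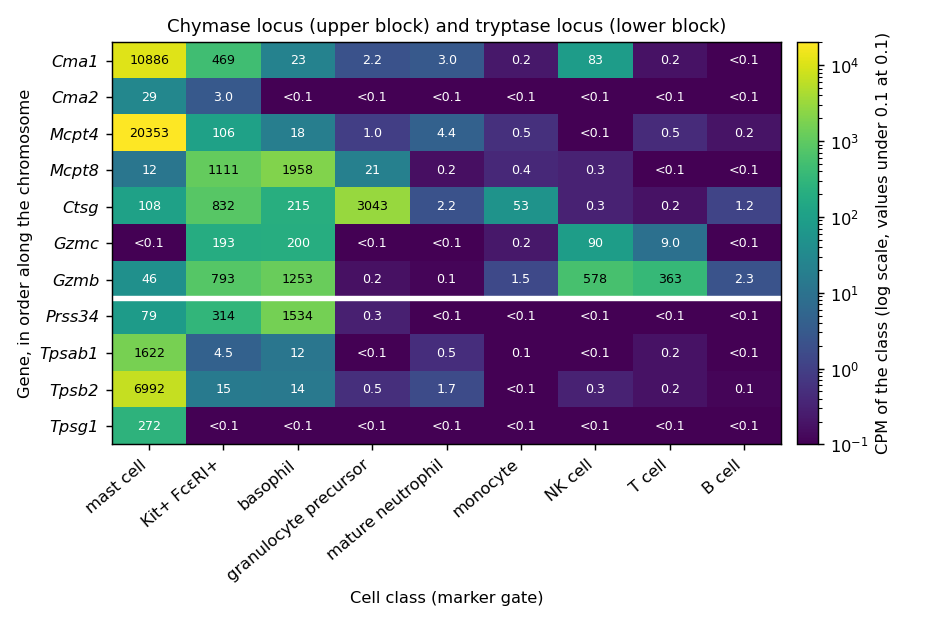
CPM (numbers, and colour on a log scale) of the genes of the chymase locus and the tryptase locus in order along the chromosome, in 9 cell classes. Mcpt4 with 20353 CPM in the mast cell gate stands beside Mcpt8 with 1958 CPM in the basophil gate, and Tpsb2 with 6992 CPM in the mast cell gate shares its locus with Prss34 at 1534 CPM in the basophil gate.

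The other genes of granule biology were read from 6 lists. For these and the locus lists, the share of all genes that reached 10 CPM or were highest in a gate was not counted. Of 7 genes of granule matrix and protease handling, 4 were highest in the mast cell gate. They included Ext1 at 4836 CPM and Ndst2 at 211 CPM, which encode enzymes of heparan sulfate and heparin synthesis, and Serpinb1a, the gene of a serine protease inhibitor, at 2960 CPM. Srgn, which encodes serglycin, the core protein that carries granule heparin, was at 3087 CPM there and at 5168 CPM in the basophil gate, and it was shared with mature neutrophils at 4690 CPM.

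Of 13 genes of histamine and serotonin 12 were in the table, and 4 were highest in the mast cell gate. Beside Hdc these were Tph1, the gene of the first enzyme of serotonin synthesis, at 364 CPM, Slc6a4, of the serotonin transporter, at 607 CPM, and Maob, of an amine-degrading enzyme, at 601 CPM. The basophil gate was at 1.52, 112 and 1.52 CPM for these. Slc22a3, the gene of an organic cation transporter that carries histamine, was highest in the Kit-positive gate at 297 CPM, with 56.1 CPM in the basophil gate and 0 in the mast cell gate. Erythroid cells were at 163 CPM of Slc22a3, megakaryocytes at 128 CPM and stem and progenitor cells at 77.7 CPM. Hnmt, which encodes a histamine-degrading enzyme, was at 0 in the mast cell gate and at 30.2 CPM in granulocyte precursors.

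All 12 exocytosis genes reached 10 CPM in each FcεRI gate, and 7 of them were highest in another class. The exceptions included Rab27b, a small GTPase of granule release, at 1071 CPM in the mast cell gate, 30.1 CPM in the Kit-positive gate and 21.2 CPM in the basophil gate, and Stx3 at 164 CPM in the mast cell gate. Of the 6 lipid mediator genes 4 reached 10 CPM in each gate. Hpgds, the hematopoietic prostaglandin D synthase, was at 332 CPM in the mast cell gate and 16.7 CPM in the basophil gate. Ptgs2, which encodes cyclooxygenase 2, and Alox5 were at 902 and 197 CPM in the basophil gate against 95.3 and 32.1 CPM in the mast cell gate. The libraries of Ptgs2 overlapped, from 0 to 5172.5 CPM in the basophil gate and from 0 to 160.5 CPM in the mast cell gate. Those of Alox5 did not, from 100.3 to 373 CPM and from 0 to 78.3 CPM. The share of all genes with libraries so divided was not counted. Ptgs2 was at 714 CPM and Alox5 at 132 CPM in mature neutrophils, whose markers were also present in the basophil gate. In immature neutrophils and macrophages Alox5 was at 130 and 143.5 CPM.

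Among 11 receptor genes 7 were highest in the mast cell gate, but Fcer1a, Ms4a2, Cd200r3, Kit, Mrgprb1 and Mrgprb2 had defined the gates. Outside these, Il1rl1, the receptor of interleukin 33, was at 1479 CPM in the mast cell gate, 114 CPM in the Kit-positive gate and 141 CPM in the basophil gate, and also at 1131 CPM in type 2 innate lymphoid cells, of which it is a marker. Of 8 transcription factor genes, Mitf was highest in the mast cell gate at 311 CPM, with 266 CPM in macrophages, and Gata2 and Cebpa in the basophil gate at 1000.3 and 121 CPM. In the mast cell gate Gata2 was at 773 CPM and Cebpa at 5.36 CPM. The libraries of both genes overlapped between these gates. For Gata2 they ranged from 614 to 2195 CPM in the basophil gate and from 568 to 2334 CPM in the mast cell gate. For Cebpa they ranged from 0 to 293 CPM and from 0 to 15.65 CPM.

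The genes most like each member over the 18 classes were sought by Pearson's r on log2(CPM + 1) among 12456 genes of at least 10 CPM in a class. For Mcpt4 they were Tpsb2 (r = 0.986), Tph1 (0.977) and Tpsab1 (0.963), and for Tpsb2 they were Tpsab1 (0.992), Mcpt4 (0.986) and Tph1 (0.971). Cma1 had the same kind of neighbours at lower values, Tph1 (0.905), Mcpt4 (0.900) and Tpsb2 (0.893). For Mcpt8 the closest was Prss34 (0.899), followed by Sntg1 (0.873) and Rnase12 (0.870), and for Slc18a2 it was Gata2 (0.957), followed by Gna14 (0.892) and Nwd1 (0.880). Cpa3 was closest to Ms4a2 (0.959), Gm11697 (0.952) and Fcer1a (0.880), of which Ms4a2 and Fcer1a had defined the gates. Hdc, alone of the 7, had neutrophil genes as its closest: Cxcr2 (0.909), itself a marker of the mature neutrophil gate, Il1f9 (0.909) and Stfa2l1 (0.896). These values describe 18 classes that share libraries and differ in depth.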

How the data were processed

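The authors sorted CD45-positive synovial cells, made Chromium 3′ libraries, used Cell Ranger 7 and the mm10 genome (per the labels) and removed ambient RNA, doublets and cells of low quality. They deposited 1 table of whole UMI counts per gene and cell, not scaled for depth. The 6 library numbers of the barcodes could not be tied to samples, so the tables give the range and median of libraries of unknown treatment, without tests or standard deviations.

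CPM divides the summed UMIs of a gene by all UMIs of the class, times 1000000, with an exact Poisson 95% interval, and shares carry exact Clopper-Pearson intervals. A share of 0 allows up to 3 counts of the total. Thinned shares are the expected share at 2500 UMIs, without shallower cells (24 of the 139 mast cells, 1 in each of the Kit-positive and basophil gates). No doublet caller was run. The eosinophil gate was empty. The 7 genes, the marker lists, the 8 gene lists and the promoter motifs were chosen with earlier results of these data known. Listed genes at 10 CPM or more in an FcεRI gate could be named, and the 3 genes most like each member. Kit-positive cells with Mrgprb genes count as mast cells. Alternatives were stricter gates, Leiden clusters made without the 7 genes, other averages, thinning, and leaving out each library. Python 3.11.15, numpy 2.4.6, scipy 1.17.1, pandas 2.3.3, scanpy 1.11.5, igraph 0.11.9 and matplotlib 3.10.9 were used, and the gates, levels, thinning and likeness were tested on simulated data. The simulated cells left out shallow cells, cells with markers of other classes and the Kit-positive gate, so the edges of the gates were not tested.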

Additional observations from a re-analysis of the deposited data

Results flagged for a closer look

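Among the cells that the gates left without a class, 42 had UMIs of 5 or more of the 7 genes, where the mast cell gate had 138 such cells. Of the 42 cells, 38 had Kit, 31 had 1 of the 3 FcεRI genes, and their median depth was 2380.5 UMIs against 5219 UMIs in the mast cell gate. Outside the FcεRI gates 34 cells in all had 1 of the 3 FcεRI genes together with Mrgprb1 or Mrgprb2. They are signal outside the classes compared.

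The count table also stores 1648 entries of value 0 for the 7 genes, of 1724738 in all, and a sparse table lists such an entry only where a value was written. They were 1097 for Hdc, 221 for Mcpt4, 142 for Cma1, 65 for Cpa3, 54 for Tpsb2, 48 for Slc18a2 and 21 for Mcpt8, and were read as 0.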

How the results depend on the processing

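The mast cell gate held 0.212% of cells with the stricter gate (all 3 FcεRI genes, 4 of 5 markers elsewhere) and 0.734% as Leiden clusters. There 1 cluster of 242 cells took in mast cells and basophils, and no cluster was named as Kit-positive FcεRI-positive cells. The basophil and Kit-positive gates therefore had no value as Leiden clusters. The basophil gate held 0.0941% with the stricter gate. The FcεRI gates held 17.8% of the UMIs of the 7 genes, 11.6% with the stricter gate and 18.9% as Leiden clusters. Leave-one-out values over the 6 libraries ran from 0.358 to 0.523% for the mast cell gate, 0.111 to 0.199% for the basophil gate, 14.6 to 21.5% for the UMIs, and 5 to 6 of the 7 genes highest in the mast cell gate. That number was 5 in all, 4 with the stricter gate or equal weight of cells, 5 by the median of libraries, and 7 as Leiden clusters. The share of all genes that were highest in the mast cell gate was not counted.

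The level of a gene in its leading gate moved by more than 1.5 times in 4 cases: Mcpt4 at 13454 CPM and Tpsb2 at 4600 CPM as Leiden clusters, and Mcpt8 in the basophil gate at 911 CPM without library 2 and 3280 CPM without cells holding neutrophil markers, an alternative added after seeing the data. Over all 3 FcεRI gates, without the Leiden clusters, 14 of 21 levels moved that far under at least 1 alternative, 9 of them with the stricter gate and 9 without library 2. Hdc in the basophil gate was at 6534 CPM with equal weight of cells. In the Kit-positive gate it was at 1601 CPM with the stricter gate, which left 5 cells. No paired analysis was possible because no cell could be assigned to a sample and no test was run. Depth limits the rare classes: 27 Kit-positive, 29 megakaryocyte and 52 basophil-gated cells, some with 1 or 2 cells in a library.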
